A study of Homo sapiens with 9 samples.

Results

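The steady-state mRNA pool of unperturbed CA46 cells was described from a single RNA-seq library, 1 of 9 samples in the series and 1 of its 4 RNA-seq libraries. CA46 is an established human B cell line derived from Burkitt lymphoma, a germinal-centre tumour. The cells carried a virus with a non-targeting control shRNA and had been kept in PBS, with 0 mM dimethyl succinate, for the last 20 h of a 48 h infection. They are therefore virus-infected control cells of a single line, not uninfected cells. The table gave 23225 named genes as FPKM, the fragment count divided by transcript length and by sequencing depth, so levels can be set side by side between genes of unlike length. There was no replicate, so every value stands without an error, no test was made, and ranks close to each other are not resolved.

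In Burkitt lymphoma a translocation places MYC under an immunoglobulin enhancer. MYC is a transcription factor that binds DNA with its partner MAX and is known for driving genes of ribosome assembly, nucleotide synthesis and energy metabolism. Cells of this tumour otherwise carry the surface receptors and factors of a mature B cell, and the study used such a line to follow how MYC acts on succinate dehydrogenase.

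Promoter sequences of 4 genes that stand for the main features of this pool are shown first: RPL35 and RPS28 as ribosomal protein genes among the 3 highest named genes, SRM as a biosynthetic enzyme known as a MYC target, and CD79A as a B cell receptor gene. Each window runs from 250 bases before the annotated start to 50 bases after it (RefSeq, GRCh38.p14), 5′ to 3′, and capitals mark motif matches on either strand. The motifs were the E-box CACGTG that MYC and MAX bind, the TATA box motif TATAAA, the NF-Y motif CCAAT, the SP1 motif GGGCGG, the ETS motif CCGGAAG and the octamer motif ATTTGCAT. The windows lie at chr9:124861908-124862207, minus strand for RPL35, at chr19:8321246-8321545, plus strand for RPS28, at chr1:11059969-11060268, minus strand for SRM and at chr19:41877029-41877328, plus strand for CD79A.
RPL35: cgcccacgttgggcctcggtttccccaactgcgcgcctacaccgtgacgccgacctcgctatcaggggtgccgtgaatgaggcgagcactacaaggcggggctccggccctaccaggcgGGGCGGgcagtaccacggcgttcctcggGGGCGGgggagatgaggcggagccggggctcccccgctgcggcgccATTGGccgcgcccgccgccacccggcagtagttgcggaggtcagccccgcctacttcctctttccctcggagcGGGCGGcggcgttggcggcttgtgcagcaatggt
RPS28: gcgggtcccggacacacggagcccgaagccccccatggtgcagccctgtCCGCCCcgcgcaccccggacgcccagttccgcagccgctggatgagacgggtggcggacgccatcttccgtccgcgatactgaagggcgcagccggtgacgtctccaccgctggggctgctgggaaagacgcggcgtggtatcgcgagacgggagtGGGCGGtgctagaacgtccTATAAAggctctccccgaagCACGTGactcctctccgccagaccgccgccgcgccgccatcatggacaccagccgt
SRM: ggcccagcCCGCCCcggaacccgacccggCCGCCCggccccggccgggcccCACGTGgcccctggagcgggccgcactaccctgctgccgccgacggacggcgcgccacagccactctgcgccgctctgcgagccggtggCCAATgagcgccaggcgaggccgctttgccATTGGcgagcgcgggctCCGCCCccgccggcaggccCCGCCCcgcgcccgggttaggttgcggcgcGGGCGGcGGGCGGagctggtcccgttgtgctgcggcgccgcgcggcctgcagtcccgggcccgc
CD79A: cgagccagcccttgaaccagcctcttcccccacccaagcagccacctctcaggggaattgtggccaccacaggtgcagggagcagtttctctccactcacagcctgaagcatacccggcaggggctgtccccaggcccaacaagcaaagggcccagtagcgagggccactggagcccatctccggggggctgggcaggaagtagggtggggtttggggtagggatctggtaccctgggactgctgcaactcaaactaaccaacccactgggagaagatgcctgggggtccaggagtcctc
The window of RPS28 held TATAAA starting at base 225 and CACGTG starting at base 245, counted from the 5′ end of the window. The window of SRM held CACGTG starting at base 52, and 48 CG pairs in all. The window of CD79A held none of these motifs and 4 CG pairs, against 37 in that of RPL35 and 38 in that of RPS28. RPS27, the other of the 3 highest genes, differed from both, with 14 CG pairs and no motif in its window. RPL35, RPS27, RPS28 and CD79A were all above 1000 FPKM, so windows rich and poor in CG pairs both stood at abundant genes.

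The label of the line was checked against its markers. MYC (chromosome 8, 128748315 to 128753680, hg19) was listed at 1964 FPKM, rank 82 of 23225. Of the 81 features above it, 63 were ribosomal protein genes, 3 were rows joining several genes and only 15 were other single genes. CD79A, the signalling chain of the B cell receptor, was at 1119 FPKM. MS4A1, which encodes CD20, was at 260 FPKM, and PAX5, the factor that commits cells to the B lineage, was at 58.3 FPKM. All 4 markers were thus above 1 FPKM, the level taken here as expressed. Germinal centre markers did not all follow the label, since MME or CD10 was at 1.39 FPKM, BCL6 at 0.168 FPKM, and SERPINA9 and RGS13 were listed at 0.

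The pool was steeply graded. At or above 1 FPKM stood 10928 named genes, 47.1% of all, while 8347 (35.9%) were listed at 0. At or above 10 FPKM stood 26.9% and at or above 100 FPKM 4.42%. Summed FPKM is taken here over the named genes only, without the rows that carry no gene name. The 114 genes at or above 1000 FPKM, 0.491% of the genes, carried 53.3% of the summed FPKM. The 90 most abundant genes carried 50.1% of it and the 100 most abundant 51.7%. The plots of level classes and of level against rank show the same steep head and long tail.

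**Figure D1:**
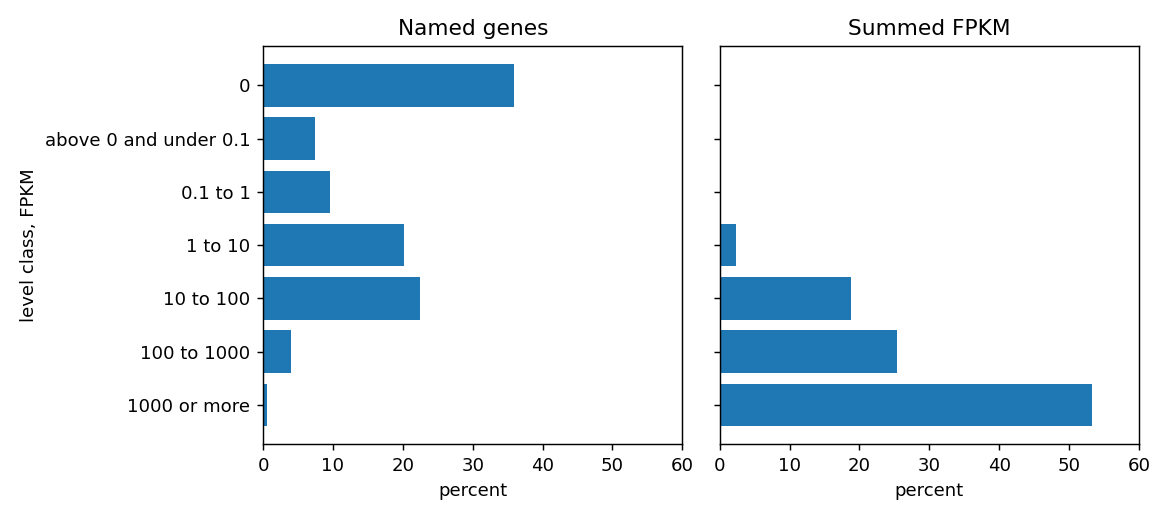
Share of named genes (left) and of summed FPKM (right), in percent, for 7 level classes in FPKM. The class at or above 1000 FPKM holds 0.491% of genes and 53.3% of the summed FPKM.

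**Figure D2:**
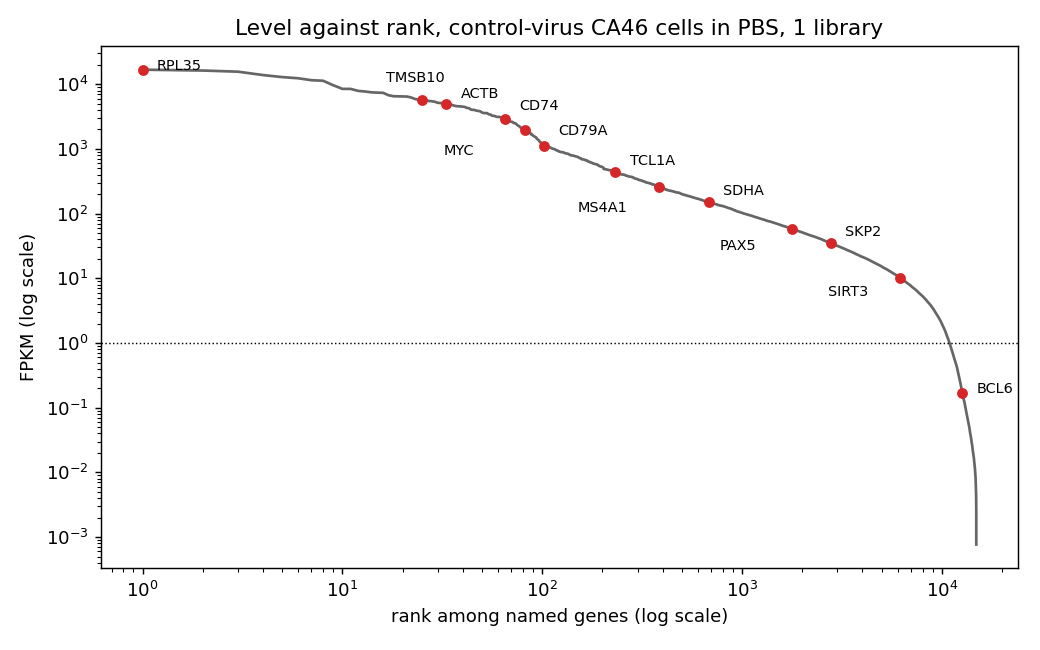
FPKM against rank for all named genes above 0, both axes on a log scale, with genes of the text marked in red and the dotted line at 1 FPKM. MYC lies at 1964 FPKM near the head of the curve, and BCL6 at 0.168 FPKM lies in its tail.

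Ribosomal protein genes made up the head of the list. Among the 40 most abundant single genes 37 were ribosomal protein symbols, and 69 among the 100 most abundant. All 76 listed ribosomal proteins with a row of their own were above 100 FPKM, against 4.42% of all named genes. Their median was 4286 FPKM, and together they held 42.9% of the summed FPKM. The highest were RPL35 (16810 FPKM), RPS27 (16303 FPKM), RPS28 (15657 FPKM), RPL13A (13883 FPKM) and RPL37A (12911 FPKM). The listed levels spread widely, with RPL27A at 400 FPKM and RPL22 at 418 FPKM among the lower ones. Many of these genes are short and have processed pseudogenes, and how reads with several matches were counted is not given in the sources used here, so the order within this family is uncertain.

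The 3 genes among the 40 most abundant that were not ribosomal were TMSB10 (5779 FPKM), ACTB (5032 FPKM) and EEF1A1 (4701 FPKM). TMSB10 encodes a thymosin that binds actin monomers, ACTB encodes cytoplasmic actin, and EEF1A1 brings aminoacyl-tRNA to the ribosome. Further down came a second thymosin, TMSB4X (3890 FPKM), the cytokine MIF (3878 FPKM), the glycolytic enzyme GAPDH (3581 FPKM), the actin-binding PFN1 (3411 FPKM) and PTMA (3225 FPKM). Genes of antigen presentation and the lymphocyte surface followed with CD74, the invariant chain of MHC class II (2892 FPKM, rank 65), B2M, the light chain of MHC class I (2133 FPKM), and CD52, a lymphocyte surface antigen (1675 FPKM). IGLL5, an immunoglobulin lambda-like gene, was at 1064 FPKM over 2 rows.

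Growth genes formed the next tier. Translation factors had a median of 245 FPKM over 28 genes, with EEF1G at 2626 FPKM, EEF2 at 2079 FPKM and EIF5A, the factor that carries hypusine, at 1678 FPKM. Nucleolar assembly factors had a median of 98.2 FPKM over 26 genes, led by NPM1 (1536 FPKM), the methyltransferase FBL (983 FPKM), NHP2 (692 FPKM) and NCL (671 FPKM), and the lowest was UTP15 at 6.13 FPKM. All 21 MYC target enzymes and chaperones with a row of their own were at or above 10 FPKM, against 26.9% of all named genes, with a median of 235 FPKM. Among them were ODC1, the first enzyme of polyamine synthesis (404 FPKM), SRM, the spermidine synthase (320 FPKM), and TERT, the catalytic subunit of telomerase (10.6 FPKM, the lowest of the 21).

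Enzymes of energy and nucleotide metabolism were listed throughout. The respiratory chain list had a median of 385 FPKM over 42 genes, led by COX7C (2281 FPKM), COX8A (1104 FPKM) and COX6A1 (1045 FPKM), and UQCRB was lowest at 27.1 FPKM. Glycolysis had a median of 97.8 FPKM over 21 genes, with ENO1 at 1808 FPKM and ALDOA at 1057 FPKM, and ENO2 at 0.0943 FPKM was the only member under 1 FPKM. The 25 TCA cycle genes had a median level of 82.6 FPKM and a narrower range, with MDH2 at 318 FPKM, CS at 169 FPKM and IDH1 at 19.7 FPKM. Nucleotide and one-carbon synthesis had a median of 73.5 FPKM over 29 genes, with APRT at 405 FPKM, SHMT2 at 250 FPKM, IMPDH2 at 239 FPKM and UMPS, the lowest, at 11.6 FPKM. Every gene of the last 3 lists other than ENO2 was thus above 1 FPKM, against 47.1% of all named genes at or above it.

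Besides MYC, the genes that the study addresses ran from 150 FPKM for SDHA to 10.2 FPKM for SIRT3. The median of all named genes at or above 1 FPKM was 13.0 FPKM. SDHA, the flavoprotein of succinate dehydrogenase, was at 150 FPKM and SDHB, its iron-sulphur subunit, at 131 FPKM. The membrane anchors SDHD and SDHC were lower, at 98.9 FPKM and 49.3 FPKM. SKP2, an F-box protein that selects proteins for ubiquitination, was at 34.8 FPKM, and SIRT3, a mitochondrial deacetylase, at 10.2 FPKM. In the list of the machinery of H3K4 methylation, the mark the study followed, WDR5 was highest (99.4 FPKM), then KDM1A (89.9 FPKM) and CXXC1 (52.8 FPKM). The large methyltransferases KMT2A (6.56 FPKM) and KMT2C (4.65 FPKM) and the demethylase KDM5B (1.88 FPKM) were low. All 16 genes of the list with a row of their own stayed above 1 FPKM, against 47.1% of all named genes.

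In the MYC network, MYC stood far above all others. Its obligate partner MAX was at 73.7 FPKM. The antagonists that also pair with MAX were at 35.9 FPKM for MXD4, 17.7 FPKM for MXD3, 16.5 FPKM for MNT, 10.7 FPKM for MXI1 and 0.553 FPKM for MXD1. MYCL was at 0.981 FPKM and MYCN was listed at 0. Among the 20 named genes nearest to MYC on chromosome 8, out to 2098159 bp, 16 were listed at 0, against 35.9% of all. Another 2 lay between 0 and 1 FPKM. Only PVT1, a noncoding gene next to MYC (27.9 FPKM over 2 rows), and FAM49B (24.6 FPKM) were above 1 FPKM. Most of the 20 are long noncoding genes, and of the 2775 such genes in the library 1824 were listed at 0.

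B cell genes were listed at high levels with a few gaps. Of 59 surface, signalling and transcription factor genes with a row of their own, 55 (93.2%) were at or above 1 FPKM, against 47.1% of all named genes. The lists were drawn up with earlier results of these data known, so this share is no independent check of the label. After CD74, CD79A and MS4A1 came FCER2 or CD23 (255 FPKM over 2 rows), VPREB3 (235 FPKM), FCRLA (220 FPKM), CD53 (212 FPKM) and CD37 (191 FPKM). The receptor kinases SYK (129 FPKM), LYN (69.9 FPKM) and BLK (48.9 FPKM) were present, as was the inhibitory receptor CD22 (74.9 FPKM). The row that joins CD79B with CSH1 stood at 699 FPKM. CR2, the complement receptor CD21, and BANK1, a B cell adaptor, were listed at 0, and CXCR5, the homing receptor for follicles, was at 2.91 FPKM.

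In the list of B cell transcription factors, which does not hold MYC, the E protein TCF3 was highest (212 FPKM), with its inhibitor ID3 close below (194 FPKM). MYBL2 (166 FPKM), SPIB (143 FPKM), SPI1 (134 FPKM) and POU2AF1, the octamer coactivator (91.2 FPKM over 2 rows), followed. EBF1, a B lineage pioneer factor, was low at 8.4 FPKM. BCL6, the master repressor of the germinal centre, was at 0.168 FPKM and MYBL1 at 0.792 FPKM. These were the only members of the factor list under 1 FPKM.

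The germinal centre list was uneven. STMN1 (238 FPKM), HMGB2 (199 FPKM), CD38 (80.6 FPKM) and EZH2 (29.7 FPKM) were well above 1 FPKM. Of these, STMN1 and HMGB2 also belong to the list of proliferation genes described below. MME was at 1.39 FPKM and S1PR2, a receptor that confines germinal centre B cells, at 1.25 FPKM. RGS13 and SERPINA9 were listed at 0, as was P2RY8, but a 0 over the 2 rows of P2RY8 does not show that it was silent. Of the 22 genes, 17 were at or above 1 FPKM, against 47.1% of all named genes, and the median was 3.86 FPKM, against 29.6 FPKM for the plasma cell list. The plasma cell list had JCHAIN, the joining chain of IgM and IgA, at 652 FPKM, MZB1 at 333 FPKM, FKBP11 at 206 FPKM and the secretory factor XBP1 at 89.6 FPKM. Its repressor of the B cell programme, PRDM1, was at 1.36 FPKM. Of 13 precursor genes 4 (30.8%) were at or above 1 FPKM, against 47.1% of all named genes. Listed below 0.1 FPKM were 9, with DNTT at 0.0192 FPKM, RAG1 at 0.00532 FPKM and RAG2 and CD34 at 0. Of all named genes 35.9% were listed at 0 and 7.49% above 0 and under 0.1 FPKM. Among the 9 was CD99, whose 0 over 2 rows does not show that it was silent. IL7R (33.0 FPKM), VPREB1 (24.8 FPKM) and IGLL1 (19.5 FPKM) were listed above 10 FPKM.

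**Figure D3:**
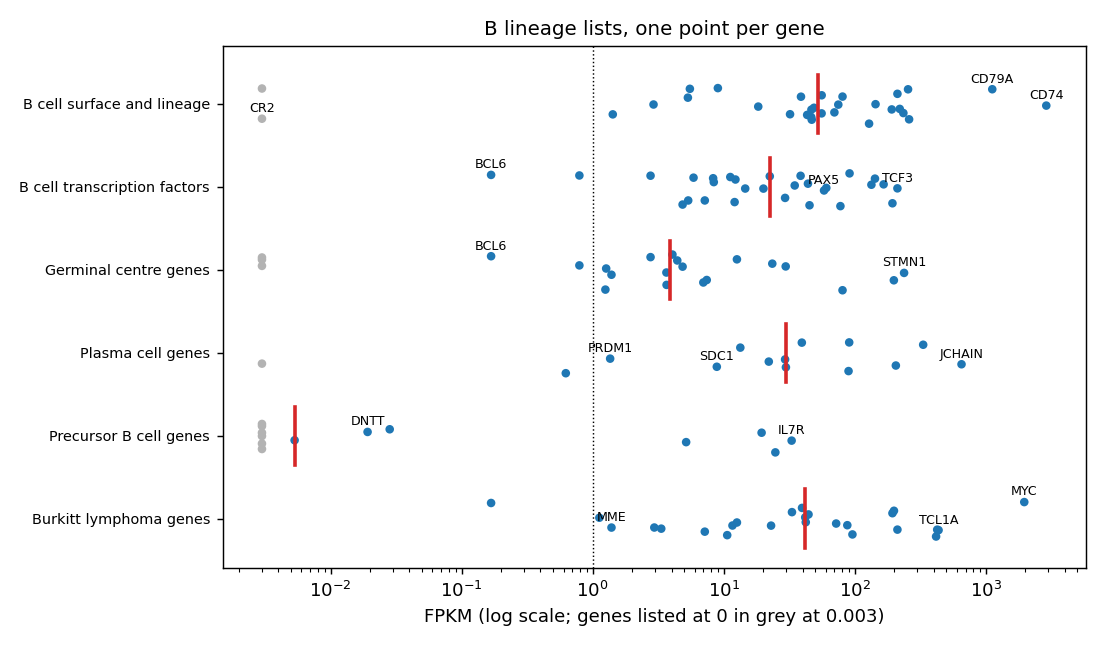
FPKM on a log scale for each gene of 6 B lineage lists, 1 point per gene with a row of its own, the list median as a red bar, genes listed at 0 in grey at 0.003 and 1 FPKM as a dotted line. The germinal centre list has a median of 3.86 FPKM with BCL6 at 0.168 FPKM, and the plasma cell list a median of 29.6 FPKM.

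In the list of genes known from Burkitt lymphoma, which includes MYC, TCF3, ID3 and BCL6, 24 of 25 were at or above 1 FPKM, against 47.1% of all named genes. MME (1.39 FPKM) and SOX11 (1.13 FPKM) passed narrowly, and BCL6 did not pass. The list also holds genes that are not particular to this tumour, such as RHOA and SMARCA4, so the share does not check the label. TCL1A, a coactivator of AKT kinases, was at 436 FPKM, RHOA at 417 FPKM, the SWI/SNF ATPase SMARCA4 at 96.0 FPKM, CDKN2A at 42.3 FPKM and CCND3 at 41.9 FPKM. The survival gene BCL2 was at 2.95 FPKM, while its relative MCL1 was at 83.6 FPKM. The death effector BAX was highest of the apoptosis list at 312 FPKM. The host gene of the miR-17 cluster, MIR17HG, was at 3.34 FPKM, which counts fragments of the host transcript and not the mature microRNAs.

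Cell cycle genes were listed at moderate to high levels. Of 37 proliferation genes 36 were at or above 1 FPKM, against 47.1% of all named genes, with a median of 69.3 FPKM. TUBA1B (1299 FPKM), TUBB (866 FPKM over 8 rows), MCM7 (245 FPKM), PCNA (204 FPKM) and CDK4 (190 FPKM) were high. MKI67 was at 26.4 FPKM. CCND1 was the exception, at 0.0941 FPKM.

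Immune response genes ranged widely in level. In the interferon list 26 of 27 genes were at or above 1 FPKM, against 47.1% of all named genes. Their levels had a median of 25.2 FPKM and ran from ISG15 (641 FPKM) and IFITM1 (549 FPKM) to OAS3 (0.464 FPKM). MHC class II was led by HLA-DRA (965 FPKM) and class I heavy chains included HLA-C (690 FPKM) and HLA-B (633 FPKM), each summed over 6 or 7 rows of alternative chromosome 6 haplotypes. CIITA, the class II transactivator, was at 33.0 FPKM. HLA-DRB1 was listed at 0 in its own rows, while the row joining it with HLA-DRB5 held 135 FPKM. TAP2, in 7 rows, and the general transcription factor GTF2H4, in 5 rows, were also listed at 0, although the row joining GTF2H4 with VARS2 held 47.6 FPKM, so a 0 in a gene with several rows does not show that the gene was silent. Of 5245 protein-coding genes listed at 0, 113 had several rows. NF-kB responsive genes had a median of 14.5 FPKM, with LTB at 179 FPKM and the chemokine CCL22 at 152 FPKM, while IL6 and IL10 were listed at 0.

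Markers of other lineages were mostly below 1 FPKM. Of 186 such genes with a row of their own, 27 (14.5%) were at or above 1 FPKM, against 47.1% of all named genes, and 3 (1.61%) were at or above 100 FPKM, against 4.42%. In the hepatocyte list 0 of 15 and in the pancreas and gut list 0 of 13 reached 1 FPKM, with ALB at 0.0171 FPKM. In the erythroid list 11 of 15 were listed at 0, against 35.9% of all named genes. The 2 above 1 FPKM were the transferrin receptor TFRC (56.4 FPKM), which dividing cells also use, and EPOR (2.24 FPKM). In the epithelial list 2 of 15 genes were at or above 1 FPKM, the adhesion molecule EPCAM (5.04 FPKM) and the basal epithelial factor TP63 (3.93 FPKM), and 9 were listed at 0, among them KRT8, KRT18, KRT19 and the cadherin CDH1. Outside that list the keratin gene KRT10 was at 21.2 FPKM.

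The markers that did stand above 1 FPKM were few and widely spread. VIM, the intermediate filament of mesenchymal and blood cells, was at 461 FPKM and TUBB3, a tubulin known from neurons, at 289 FPKM. AIF1, a macrophage marker, was at 103 FPKM over 6 rows. The neurofilament gene NEFH was at 35.8 FPKM and the T cell kinase LCK at 12.9 FPKM. CD6 (11.2 FPKM), CD3E (8.65 FPKM) and CD7 (4.91 FPKM) were above 1 FPKM, but CD3D (0.150 FPKM), CD247 (0.0242 FPKM), CD8A, CD8B, CD5 and BCL11B (each at 0) were not. In the myeloid list CD68 (9.81 FPKM), LYZ (8.74 FPKM) and ITGAM (8.54 FPKM) were above 1 FPKM, while MPO, ELANE, S100A8 and S100A9 were listed at 0 and CD14 was at 0.107 FPKM. Whether rare cells of another type or low expression in the B cells gave these values was not tested.

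**Figure D4:**
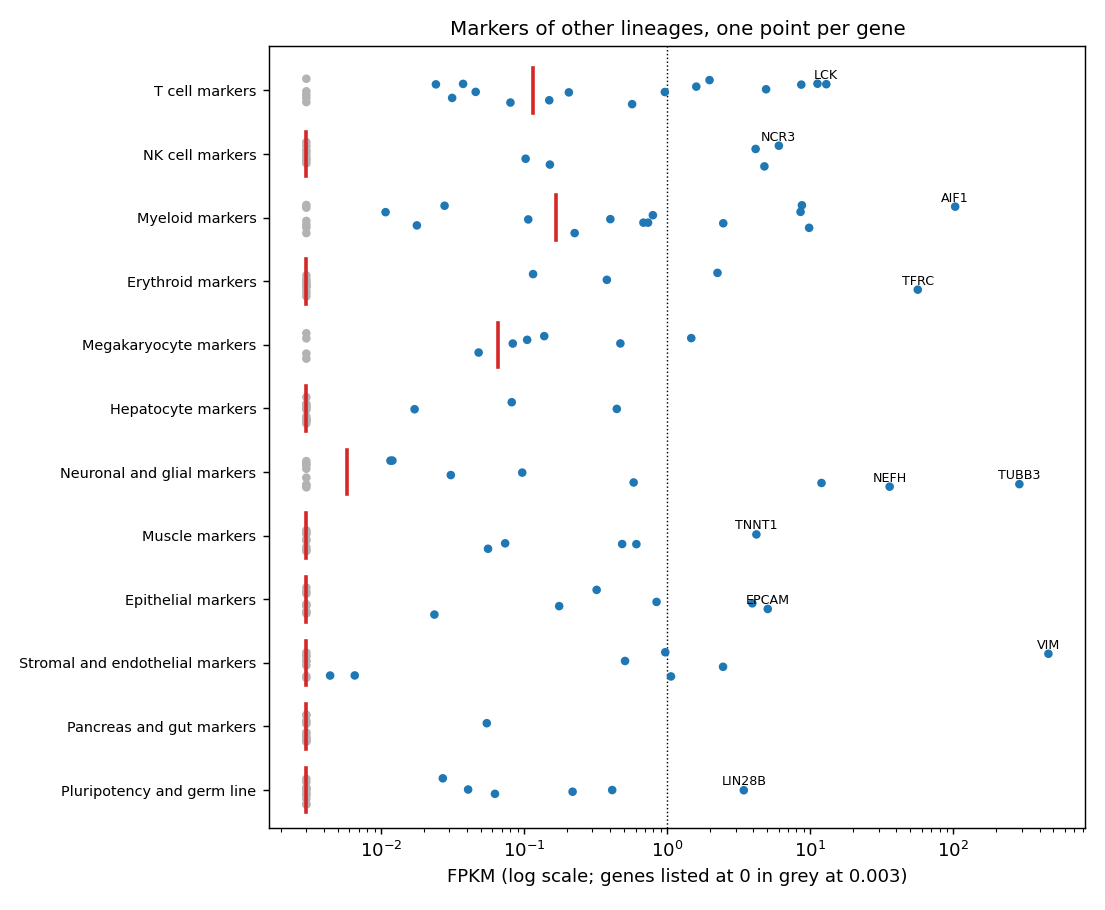
FPKM on a log scale for each gene of 12 lists of other lineages, 1 point per gene with a row of its own, the list median as a red bar (at 0.003 where it is 0), genes listed at 0 in grey at 0.003 and 1 FPKM as a dotted line. Most points lie left of the dotted line, and VIM at 461 FPKM and TUBB3 at 289 FPKM lie farthest right.

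Families of paralogues divided into those with a single high member and those with several. Of 71 families with at least 2 own rows, 30 (42.3%) had a member 10-fold or more above every other, of which the GATA family had no member above 0.1 FPKM. The 30 include the ADP/ATP carriers, where SLC25A6 was listed at 0 over 2 rows, which does not show that it was silent. The tissue-restricted partners RPL10L, COX6A2, COX4I2 and PGK2 and the oncofetal HMGA2 were listed at 0 beside RPL10 (1194 FPKM), COX6A1 (1045 FPKM), COX4I1 (1016 FPKM), PGK1 (401 FPKM) and HMGA1 (1098 FPKM). EIF5A stood 26288-fold above EIF5A2 (0.0638 FPKM), PFN1 25321-fold above PFN4 (0.135 FPKM) and PKM 18662-fold above PKLR (0.0490 FPKM). At such levels the lower member rests on few fragments, so the size of these ratios is loose. Among regulators, SYK was 4100-fold above ZAP70, MYC 2002-fold above MYCL, PAX5 98.6-fold above PAX8 and CDK4 94.7-fold above CDK6.

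Other families were shared between members. TOP2B (55.6 FPKM) and TOP2A (53.7 FPKM), the phosphofructokinases PFKP (97.8 FPKM), PFKL (92.5 FPKM) and PFKM (85.1 FPKM), and the lactate dehydrogenase subunits LDHB (1010 FPKM) and LDHA (882 FPKM) were nearly level. HK1 (33.3 FPKM) and HK2 (29.1 FPKM) were close, as were IKZF1 (43.9 FPKM) and IKZF3 (34.8 FPKM), IRF8 (60.6 FPKM) and IRF3 (50.7 FPKM), and the kinases LYN and FGR (59.6 FPKM). With no replicate, the order within these pairs is not resolved. Among the D cyclins CCND3 (41.9 FPKM) was above CCND2 (18.8 FPKM). Among sphingosine receptors S1PR4 (72.0 FPKM) was 11.7-fold above S1PR1 (6.16 FPKM).

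**Figure D5:**
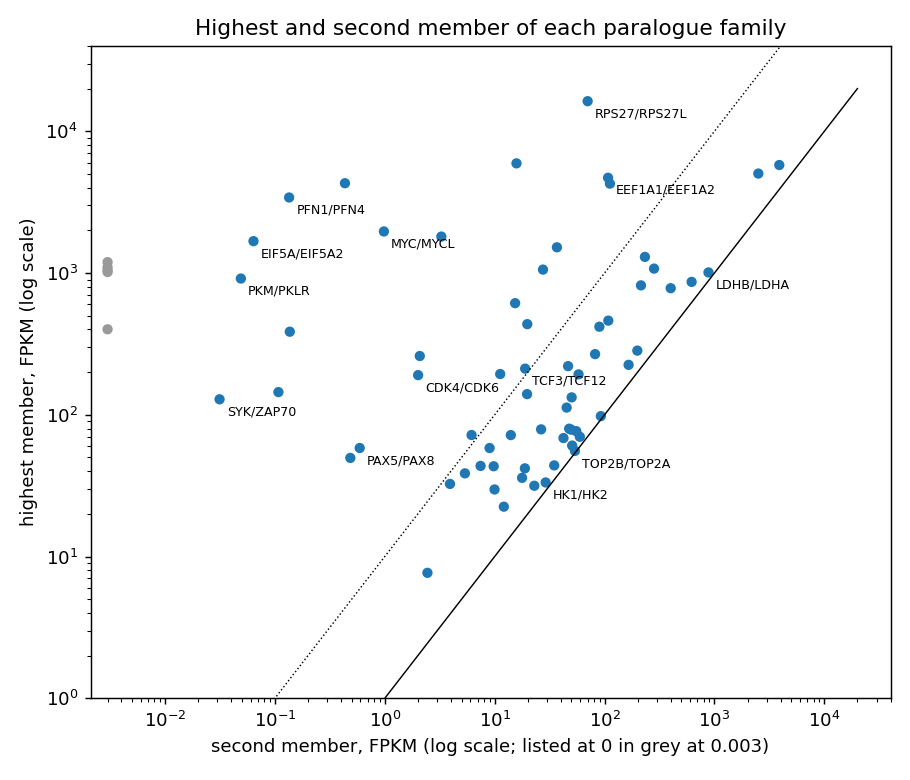
FPKM of the highest member (vertical) against the second member (horizontal) of each family, both on a log scale, for the families whose highest member reached 0.1 FPKM, with equality as a solid line, 10-fold as a dotted line, and second members listed at 0 in grey at 0.003. EIF5A, PFN1 and PKM lie far above the dotted line, and LDHB with LDHA at 1010 FPKM and 882 FPKM lies near the solid line.

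Promoter windows were read across the level classes of protein-coding genes at or above 1 FPKM, where 81.8% to 85.5% of genes had a window. Under 1 FPKM fewer than 80% had one, so that check is void there. CACGTG was held by 9.27% of 3270 windows at 1 to 10 FPKM, 11.7% of 4121 at 10 to 100 FPKM, 13.7% of 730 at 100 to 1000 FPKM and 5.56% of 90 at or above 1000 FPKM, against 10.9% of the 8211 windows of these classes together. TATAAA was held by 5.05%, 4.44%, 8.90% and 8.89% in the same order of classes, against 5.13% of the classes together. The ETS-type CCGGAAG was held by 18.8% of windows at 1 to 10 FPKM and 25.3% at 100 to 1000 FPKM. At or above 1000 FPKM it was held by 27.8%, against 21.6% of the classes together. It was held by 32.8% of 67 windows of ribosomal protein genes. Of the 34 windows of other genes at or above 1000 FPKM, 17.6% held it. The 67 windows of ribosomal protein genes were not limited to that class. With so few windows, whether the high share extends beyond ribosomal protein genes was not tested. CCAAT was held by 37.7% of the 8211 windows, GGGCGG by 71.6% and ATTTGCAT by 1.29%. The median count of CG pairs per window was 26, 28, 26 and 23. These are matches of letters in annotated windows, none of the motifs contains another, and they do not show binding.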

How the data were processed

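TRIZOL-extracted total RNA went into a NEBNext Ultra library, per the labels' protocols. The submitters' processing notes name TopHat2 2.1.0, Cuffdiff 2.2.1 and hg19 among their tools and builds, with no role or order; the sources used here name no annotation or strand setting. The authors deposited FPKM for 31016 rows, used as deposited with no rescaling. Of these, 3919 rows had no gene name and 2002 small RNA features were left out. Where a symbol had several rows (695 symbols) their FPKM was added, small RNA names were dropped from joined rows, and the 481 rows still joining several genes were kept as a feature each and left out of list counts. Names turned into dates (25 features) were counted but not named. RefSeq (GRCh38.p14) matched 21645 of 22719 single symbols and gave biotypes and promoters only. Coordinates of genes are hg19, counted from 1.

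Depth was not given. In 129 unnamed rows of 1000 to 4000 bp with low values, the step of a single fragment implied about 23.2 fragments per kilobase for each FPKM. Only steps of 0.03 to 0.065 FPKM per kilobase entered that estimate, and these limits bound it. No interval was computed.

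The members and lists were chosen with earlier results of these data known, so shares counted over the lists are no independent check. Genes were named as the 40 most abundant single genes, up to 5 highest and 5 lowest (0 or under 0.1 FPKM) members of each list, the study's own genes, paralogue families with the 12 largest ratios or a ratio under 1.5, the highest 3 members of families by symbol pattern, the 10 most abundant noncoding genes and the 20 neighbours of MYC, with further list members named after their values were seen. Python 3.11.15 with pandas 2.3.3 was used, and the counting code was tested on simulated data.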

Additional observations from a re-analysis of the deposited data

Results flagged for a closer look

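Signal stood in rows that the lists do not use because they carry no gene name. The highest value of the whole table, 113198 FPKM, was a row on chromosome 14 from 106725316 to 107170240 (hg19), which alone held 10.6% of the FPKM of all rows. The named noncoding gene LINC00221 has the same span and stood at 62.0 FPKM. The second highest, 23103 FPKM, was a row of 167 bp on chromosome 7 from 27498328 to 27498494. Rows with no gene name together held 15.7% of the FPKM of all rows.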

How the results depend on the processing

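The 5 counts and shares were recomputed with the highest row of a symbol only, with small RNA genes kept and with joined rows left out, and each count stayed within 1.5 times its value. The share of the 100 most abundant genes, 51.7%, was 51.6% with small RNA genes kept, 52.4% without joined rows and 43.5% when rows with no gene name entered the sum. At a threshold of 0.5 FPKM and at 5 FPKM the number of named genes was 11714 and 8162, and that of B cell genes 56 and 51. Other-lineage markers numbered 37 at 0.5 FPKM and 14 at 5 FPKM, against 27 at 1 FPKM, since fewer genes pass a higher level. The paralogue count was 37 at a ratio of 5 and 29 with 1 FPKM added. No paired analysis was possible because a single library was described and no result came from a test. No replicate could be left out. Levels near 0.1 FPKM rest on few fragments, and levels of short genes, of genes with close copies and of overlapping genes are uncertain.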

Other observations

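Noncoding genes were led by hosts of small nucleolar RNAs. SNHG8 was at 910 FPKM, LRRC75A-AS1 at 797 FPKM, GAS5 at 688 FPKM, SNHG19 at 576 FPKM and DANCR at 525 FPKM. PCNA-AS1 was at 517 FPKM, but it overlaps PCNA, and reads of the partners cannot be told apart without strand. MALAT1 (8.83 FPKM) and NEAT1 (5.26 FPKM), abundant nuclear transcripts in many cells, were low, and H19, MEG3 and HOTAIR were listed at 0. MIR155HG, host of a B cell activation microRNA, was at 16.8 FPKM. Of 860 LINC symbols 85 (9.88%) were at or above 1 FPKM, against 14.5% of long noncoding genes and 47.1% of all named genes.

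Several families of tissue-restricted genes were listed at 0 throughout. All 34 HOX genes with a row of their own, all 43 defensin symbols and all 24 MAGE and GAGE symbols were listed at 0. Of all named genes 35.9% were listed at 0. Of 388 olfactory receptor symbols 2 (0.515%) were at or above 1 FPKM, OR13A1 (2.63 FPKM) and OR7E47P (1.88 FPKM), against 47.1% of all. Among 45 interleukin symbols 7 (15.6%) were at or above 1 FPKM, against 47.1% of all, and IL32 was far highest at 224 FPKM. Among 88 CD symbols 47 (53.4%) were at or above 1 FPKM, near the 47.1% of all named genes.

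Chromosome 19 held 6.39% of named genes and 15.3% of the summed FPKM. It carries 13 ribosomal protein symbols, and without such symbols on any chromosome it held 10.1%. Chromosome 22 had the highest share of genes at or above 1 FPKM among the autosomes (58.1%) and chromosome 21 the lowest (35.5%).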
